A study of Rattus norvegicus with 12 samples.

Results

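The genes described here are the 9 that make, store and break down dopamine: Th, Ddc, Gch1, Pts, Spr, Maoa, Maob, Aldh1a1 and Slc18a2. They were found by gene name among the array probes that are not controls, which gave 17 of 45598 probes, for 9 of 36174 gene names on the array. Of the 17 probes, 5 were bright enough to be tested, 1 each for Th, Gch1, Spr, Maoa and Aldh1a1. No tested probe passed an adjusted p of 0.05 between fipronil and control cells in limma, and 2, those of Th and Aldh1a1, had an unadjusted p under 0.05.

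Transcripts were measured in N27 cells, an immortalised clonal line from the midbrain of the rat embryo that is labelled dopaminergic. The first group was 6 samples of N27 cells given 25 µM fipronil for 24 h, and the second was 6 samples of untreated N27 cells, labelled as controls. Fipronil, an insecticide of the phenylpyrazole class, acts on GABA receptors, whose chloride channel it blocks. Each sample was total RNA labelled with Cy3 on its own one-colour Agilent rat array. The treatment protocol in the labels names fipronil for all 12 samples, and the groups follow the titles and the treatment label. The labels name no genotype, transgene or vehicle, and do not say whether the samples of a group were separate cultures, so the p-values cover the variation among these arrays and no more, and that variation may be technical.

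The arrays lay on 3 slides, told apart by the slide barcode. Slide 1 held 2 fipronil arrays (replicates 7 and 8) and 2 control arrays (replicates 2 and 3). Slide 3 held the other 4 fipronil arrays and slide 2 the other 4 control arrays. The 75th percentile of the processed signal, a background-subtracted intensity, was lowest on slide 3 (111 to 140), highest on slide 2 (379 to 472) and between them on slide 1 (245 to 279). Slide 3 had 40.8% to 42.5% of its spots well above background, a flag set by the extraction software, against 47.4% to 50.02% on slide 2 and 44.5% to 46.8% on slide 1. Except on slide 1, slide and treatment cannot be told apart. In bulk samples, fewer cells that express a gene and less RNA per cell cannot be told apart either.

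Dopamine is made from tyrosine in 2 steps. Tyrosine hydroxylase (Th) makes L-DOPA with tetrahydrobiopterin as cofactor, and the decarboxylase Ddc turns L-DOPA into dopamine. The cofactor is built from GTP by Gch1, Pts and Spr in turn. The vesicular transporter VMAT2 (Slc18a2) loads dopamine into vesicles, the monoamine oxidases Maoa and Maob oxidise it to an aldehyde, and the aldehyde dehydrogenase Aldh1a1 clears that aldehyde in midbrain dopamine neurons.

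The probes behind the tested values are shown because each value below rests on a single 60-base oligonucleotide. They were read from the array files, which place them on the rat build rn4, and are written in the sense of the mRNA, 5′ to 3′. For Th (chr1:203164254-203164313, minus strand) and Aldh1a1 (chr1:223773152-223773211, plus strand) the last 30 bases are given, and capitals mark the hexamer AATAAA, the usual polyadenylation signal. It was found as printed in 9.04% of all 45598 probes and on the other strand in 3.53%, and a match is a description of the letters only.
Th, last 30 bases: ctgattattctctcAATAAAggaaggaaag
Aldh1a1, last 30 bases: ctgtaattagaatgcaaagctAATAAAggg
Gch1: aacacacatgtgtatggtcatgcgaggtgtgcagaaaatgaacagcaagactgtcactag
Maoa: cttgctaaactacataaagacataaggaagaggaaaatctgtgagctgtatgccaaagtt
Spr, bright probe: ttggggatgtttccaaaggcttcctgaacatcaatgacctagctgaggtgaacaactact
Spr, dim probe: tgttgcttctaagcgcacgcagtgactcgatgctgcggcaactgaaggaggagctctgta

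The Gch1 probe (chr15:23024229-23025738, minus strand) and the Maoa probe (chrX:17683656-17686947, minus strand) each span more than their own 60 bases in the genome, 1510 and 3292 bases, so the letters of each come from separate stretches of the genome. The bright and dim Spr probes lie at chr4:119368602-119368661 and chr4:119369125-119369184 on the minus strand.

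Detection came first, because it decided which of the 9 genes could be compared. The probes of Th, Gch1 and Maoa and the bright probe of Spr stood well above background on all 12 arrays. The Aldh1a1 probe did so on 2 of 6 fipronil and 6 of 6 control arrays. Of the 17 probes, 9 were detected on no array (52.9%, against 53.3% of all probes) and 4 on all 12 (23.5%, against 27.2%). Counted by probe, the dopamine genes were thus detected about as often as the array as a whole. But Ddc alone has 6 of the 17 probes and Slc18a2 3. Counted by gene, 5 of 9 had a tested probe, against 13546 of 36174 gene names.

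Ddc, the enzyme of the second step, was not well above background on any array with any of its 6 probes. Their processed signals ran from 2.15 to 7.65 over fipronil and control arrays, below the 10.3 to 14.03 at which the dimmest spots of each array were called well above background. The single probe of Maob, at 2.25 to 10.1, was likewise not called on any array. These probes give only an upper bound, not the absence of the transcript.

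For Slc18a2, 1 of 3 probes was called, on 1 fipronil array (replicate 2, processed signal 12.2) and on 1 control array (replicate 8, 21.8). The other two probes of Slc18a2 stayed between 2.17 and 11.2 on the 12 arrays. No level of the vesicular transporter could thus be compared between the groups.

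Pts, the second enzyme of cofactor synthesis, was called on 0 of 6 fipronil and 5 of 6 control arrays. Its processed signal was 2.61 at the lowest, 3.88 at the median and 6.45 at the highest in fipronil arrays, against 6.91, 22.3 and 31.4 in control arrays. Every fipronil value lay below every control value before scaling, but so did the 75th percentiles of the arrays themselves. These were 111 to 246 on fipronil arrays and 269 to 472 on control arrays. The share of all probes without overlap before scaling was not counted. On slide 1 alone the signals were 6.45 and 3.12 in fipronil replicates 7 and 8, against 16.4 and 6.91 in control replicates 2 and 3, and 1 control array of these 4 was called. After division by each array's 75th percentile the groups overlapped, from 1.27% to 4.95% of it in fipronil arrays and from 2.57% to 7.05% in control arrays. Of the 21279 probes called on at least 1 array, 1.55% were called on no fipronil and at least 5 control arrays. With 5 arrays called Pts missed the 6 needed for the test, and its control mean lay below the fipronil arrays' detection limit after scaling, so no fold is given.

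The dim probe of Spr was called on 1 of 6 fipronil and 4 of 6 control arrays, those 4 being the arrays of slide 2. On slide 1 it was 4.35% and 5.69% of the array's 75th percentile in fipronil replicates 7 and 8, against 4.19% and 4.31% in control replicates 2 and 3, so the arrays that set the groups apart lay on the other slides. Losses of this kind ran one way over the array. Of the 21279 probes called on at least 1 array, 7.86% were called on at least 4 more control than fipronil arrays, Pts and Aldh1a1 among them, and 0.0141% on at least 4 more fipronil than control arrays. The part of array brightness in these detection counts was not tested.

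**Figure D1:**
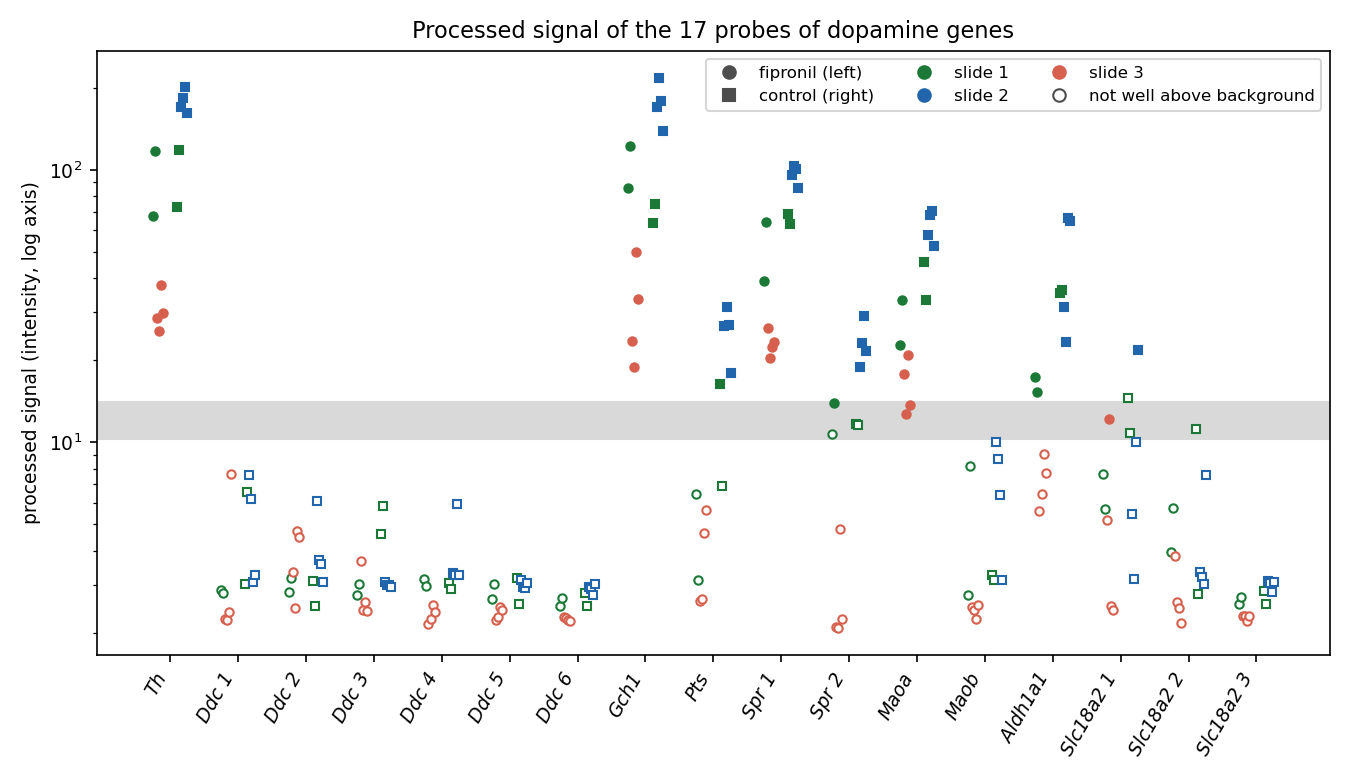
Processed signal (intensity, log axis) of the 17 probes on each of 12 arrays, fipronil circles left and control squares right, coloured by slide. Filled points were well above background on that array. The grey band spans the dimmest such signal of each array, 10.3 to 14.03, and the 6 Ddc probes lie below it on every array.

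For the comparison, each array's signals were divided by its 75th percentile, and values are given as a percentage of that percentile or, for means and differences, on the log2 scale of the same ratio. Over all 16291 probes tested, 5.3% passed an adjusted p of 0.05 in limma, 2.32% higher and 2.98% lower with fipronil. Among the dopamine genes 0 of 5 passed. Fipronil and control arrays did not overlap for 4.2% of all probes (2.6% lower with fipronil), and overlapped for all 5 of these. At an unadjusted p under 0.05 there were 2 of 5, beside 25% of all probes. Of these, Aldh1a1 met the filter for testing through its control arrays. The median log2 difference of the 5 was -0.27, against -0.08 over all probes. All 5 differences lay below 0, as did 59.5% of all differences. But all 5 lay above 0 once the background was corrected by normexp, with an offset of 50 added to every signal, before the same scaling. That setting put the median of all probes at 0.20. The offset weighs more on dim arrays, such as those of slide 3, and its part in the change of sign was not tested. With normexp and quantile scaling all 5 lay below 0.

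Th, which catalyses the rate-limiting step, was 20.8% of the 75th percentile at the lowest, 26.6% at the median and 48.0% at the highest in fipronil arrays, against 26.3%, 41.0% and 44.9% in control arrays. The groups overlapped: fipronil replicate 8 was the highest of the 12 arrays, and all 6 control arrays lay within the range of the fipronil arrays. Its log2 signal averaged -1.86 ± 0.42 with fipronil and -1.37 ± 0.29 in controls (SD, n = 6 each). The log2 difference was -0.48 (SE 0.20, 95% interval -0.91 to -0.05), with a limma adjusted p of 0.153, and 0.00621 to 0.943 over the alternatives. The 95% interval of this difference left out 0, but the adjusted p did not pass the threshold.

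With slide as a block, which takes the difference from slide 1, 0.0246% of all probes passed and 0 of the 5 dopamine genes. There 3 of the 5 differences lay below 0, beside 52.7% of all probes. For Th the slide with both treatments gave other values. On slide 1 it was 27.5% and 48.0% in fipronil replicates 7 and 8, against 26.3% and 44.1% in control replicates 2 and 3. Each treatment thus had 1 low and 1 high array on slide 1. The log2 difference from slide 1 was 0.10 (95% interval -0.54 to 0.73, adjusted p 0.890 in limma with slide as a block). Between the slides with 1 treatment each, slide 3 (fipronil) minus slide 2 (control) was -0.77. The test of slide 1 against that difference gave 0.87 (SE 0.35, limma adjusted p 0.122), while 8.19% of all probes passed it and 32% had an unadjusted p under 0.05. Without fipronil replicate 8 the Th difference was -0.64 and passed the threshold in limma (adjusted p 0.0199), which removes 1 of the 2 fipronil arrays of slide 1.

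Gch1, the first and rate-limiting enzyme of cofactor synthesis, differed more between slide 1 and the other slides than the other 4 tested probes did. It was 16.9%, 32.2% and 49.8% of the 75th percentile at the lowest, median and highest fipronil array, against 23.0%, 35.2% and 46.4% in controls, and the groups overlapped over nearly their whole range. The log2 difference over 12 arrays was -0.27 (SE 0.27, 95% interval -0.86 to 0.32, limma adjusted p 0.563). It was -0.13 without fipronil replicate 1, -0.12 without fipronil replicate 2 and -0.43 without fipronil replicate 8. On slide 1, however, Gch1 was 35.0% and 49.8% in fipronil replicates 7 and 8, against 23.0% and 27.9% in control replicates 2 and 3. Both fipronil arrays of that slide lay above both control arrays, with a log2 difference of 0.72 (95% interval -0.06 to 1.51, limma adjusted p 0.296 with slide as a block). Slide 3 minus slide 2 was -0.77, of the opposite sign. The test between them gave 1.49 (SE 0.44, limma adjusted p 0.0570), short of the threshold. With 2 arrays a treatment, an exact permutation test on slide 1 alone could not go below p = 0.333.

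Spr catalyses the last step of cofactor synthesis. Its bright probe was 15.8%, 18.6% and 26.2% of the 75th percentile at the lowest, median and highest fipronil array, against 20.1%, 22.8% and 25.3% in controls. Fipronil replicate 8 was above every control array, so the groups overlapped. The log2 difference was -0.26 (SE 0.13, 95% interval -0.55 to 0.03, limma adjusted p 0.243), with -0.24 on slide 1 and -0.27 for slide 3 minus slide 2. The interval leaves room for a fall of up to 0.55 on the log2 scale.

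Of the oxidases, Maoa alone was measurable. It was 9.23%, 12.5% and 14.8% of the 75th percentile at the lowest, median and highest fipronil array, against 12.3%, 14.8% and 16.5% in control arrays. Fipronil replicate 7 was the lowest array, and the fipronil and control ranges overlapped between 12.3% and 14.8%. The log2 difference was -0.23 (SE 0.13, 95% interval -0.51 to 0.06, limma adjusted p 0.306), with -0.35 on slide 1 and -0.16 for slide 3 minus slide 2. Without fipronil replicate 7 it was -0.14. On slide 1 fipronil replicate 8, at 13.5%, lay between control replicates 3 and 2, at 12.3% and 16.5%.

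Aldh1a1, which oxidises the dopamine aldehyde, had a larger difference over the 12 arrays than the other 4 tested probes, but not with values raised to the background level, where it was -0.46 and Th -0.48. It was 4.08%, 6.33% and 7.04% of the 75th percentile at the lowest, median and highest fipronil array, against 4.96%, 13.0% and 15.2% in controls. The fipronil arrays lay below 5 of the 6 control arrays, and control replicate 6, at 4.96%, was the one within their range. Its log2 signal averaged -4.07 ± 0.29 with fipronil and -3.23 ± 0.62 in controls (SD, n = 6 each). The log2 difference was -0.84 (SE 0.26, 95% interval -1.39 to -0.29), with a limma adjusted p of 0.0685 that missed the threshold. The probe met the filter of 6 arrays through the control arrays, so this test leans on the group where it was high. The adjusted p ran from 0.0179 to 0.276 over the alternatives, which differ in direction. In limma it was 0.242 with values raised to the background level. With normexp background and the 75th percentile it was 0.038, for a difference of 0.42, higher with fipronil. That setting adds an offset of 50, where the processed signal of this probe was 5.60 to 9.04 on slide 3. The part of the offset in this value was not tested. With normexp and quantile scaling the difference was -0.25 (limma adjusted p 0.0892).

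For Aldh1a1 the difference lay below 0 on slide 1 and also between the other slides. On slide 1, where the probe was called on all 4 arrays, it was 7.04% and 6.23% in fipronil replicates 7 and 8, against 12.7% and 13.4% in control replicates 2 and 3. Both fipronil arrays lay below both control arrays. The log2 difference there was -0.98 (95% interval -1.96 to 0.01, limma adjusted p 0.267 with slide as a block), and slide 3 minus slide 2 was -0.77. The test between them gave -0.20 (SE 0.55, limma adjusted p 0.817), and with that SE it cannot show that the sizes are alike. The 4 fipronil arrays of slide 3 were not well above background, so their part of the difference rests on values near the detection limit. Without control replicate 6 the log2 difference was -1.06 and passed (limma adjusted p 0.0305).

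**Figure D2:**
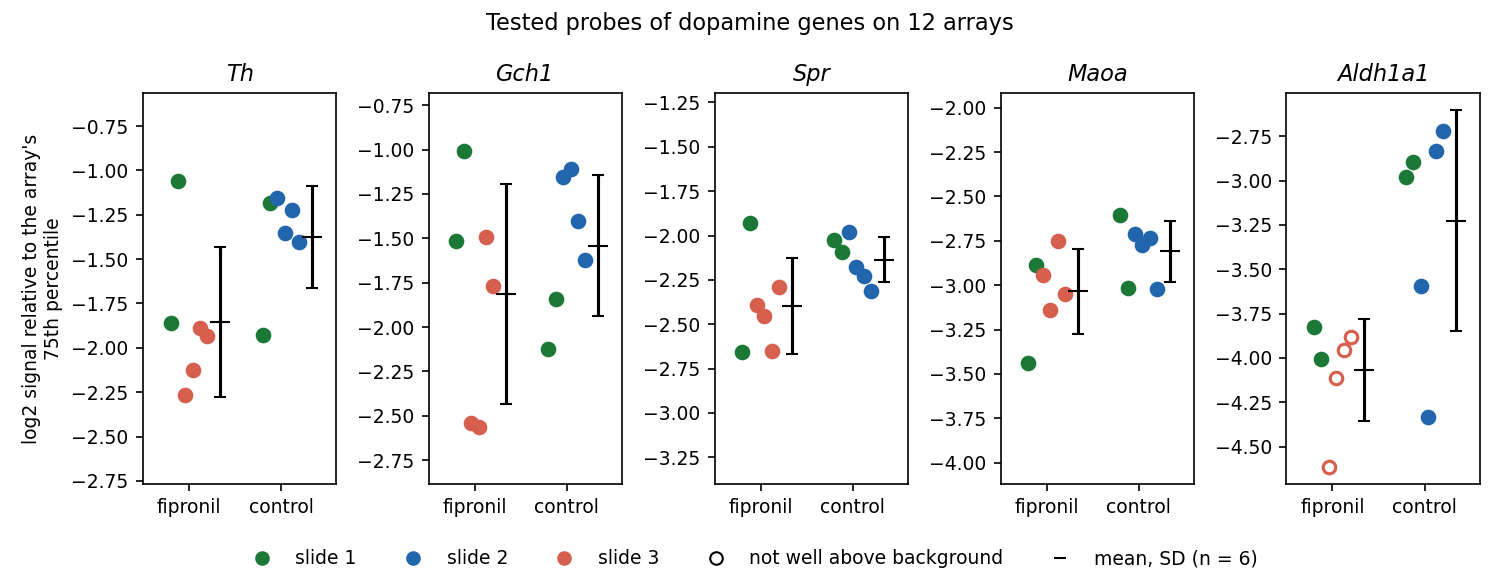
Log2 signal relative to each array's 75th percentile for the 5 tested probes, fipronil left and control right, 1 point an array coloured by slide, open where not well above background, with the mean and SD of 6 arrays. The groups overlap for every gene, and the open Aldh1a1 points are the 4 arrays of slide 3.

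**Figure D3:**
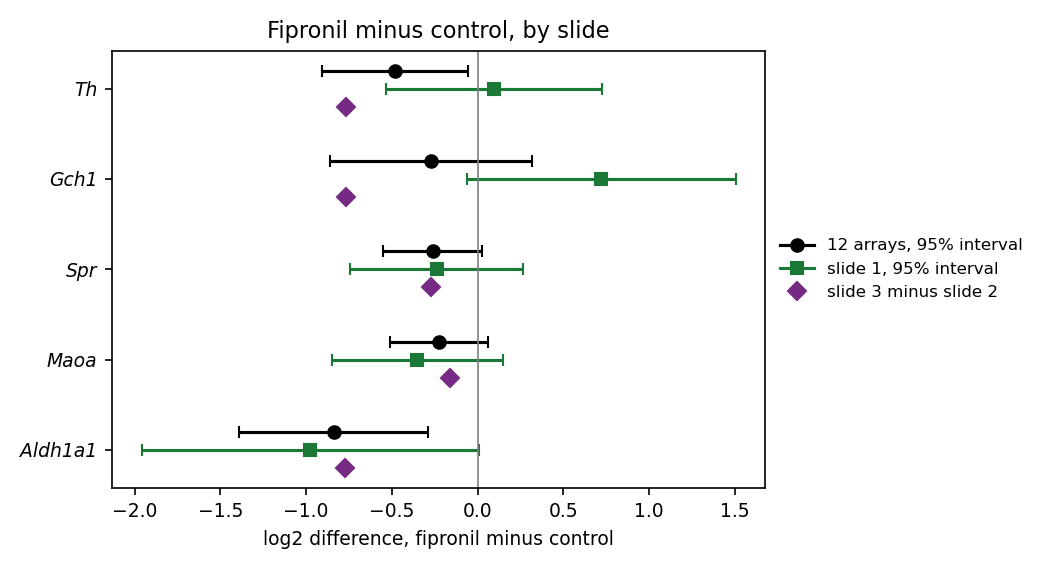
Log2 difference of fipronil minus control for the 5 tested probes, over 12 arrays and on slide 1 (bars are 95% intervals), with slide 3 minus slide 2 as diamonds. Aldh1a1, Spr and Maoa lie below 0 in all 3, whereas Th and Gch1 lie above 0 on slide 1 (with normexp background and the 75th percentile all 5 lie above 0 over 12 arrays).

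The label of the line as dopaminergic was set against 6 markers of such neurons. Th was called on all 12 arrays, Slc18a2 on 2 and Nr4a2, a transcription factor of dopamine neurons, on 1. Ddc, the dopamine transporter Slc6a3 and the transcription factor Pitx3 were called on 0 of 12. All 4 markers of noradrenergic neurons, Dbh and Slc6a2 among them, and all 4 of serotonergic neurons, Tph1, Tph2, Slc6a4 and Fev, were also called on no array. Of 6 general neuronal markers Tubb3 was called on 9 arrays and Nefm on 1. The progenitor markers Nes and Vim were called on all 12, and Sox2 on 2 of 6 fipronil and 6 of 6 control arrays. Among glial markers, 1 of 4 for astrocytes and 1 of 4 for oligodendrocytes were called, on 1 array each, and Cx3cr1 alone of 4 for microglia, on 12. None of the tested markers passed between the groups in limma.

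The wider pathway was read from 38 related genes, of which 37 had a probe and 14 were tested. In limma 0 passed in either direction, and 3 had an unadjusted p under 0.05, beside 5.3% and 25% of all probes. In other settings 6 of 14 passed with normexp background and the 75th percentile, beside 8565 of all 16291 probes. Without fipronil replicate 8, 3 of 14 passed, beside 2372 of 16291. Without a filter on dim probes 1 passed, beside 21371 of 45598. For slide 3 against slide 2, 3 of 14 passed, about the same share as of all probes, whose count is given at the end. Whether the related genes passed more often than all probes was not tested. Their median log2 difference was -0.13, against -0.08 over all probes. Below 0 were 11 of 14 over 12 arrays and 4 of 14 on slide 1, beside 59.5% and 52.7% of all probes. With normexp background and the 75th percentile 7 of 14 were below 0, where the median of all probes was 0.20. All 6 genes that recycle or control tetrahydrobiopterin were tested, as were 5 of 6 other genes of dopamine breakdown and 2 of 6 monoamine transporters. None of the 5 dopamine receptors, of 2 genes of noradrenaline and adrenaline synthesis or of 11 transcription and growth factor genes of dopamine neurons could be tested.

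Among the related genes with the smallest p were Akr1b1, Qdpr, Slc29a4 and Pdxk. Akr1b1, an aldose reductase that can reduce monoamine aldehydes, had a log2 signal of 1.03 ± 0.43 with fipronil and 1.54 ± 0.25 in controls (SD, n = 6 each). Its difference was -0.51 (SE 0.19, limma adjusted p 0.126), and -0.03 on slide 1. Qdpr, which regenerates the cofactor after each turn of Th, had a log2 signal of 2.22 ± 0.22 with fipronil and 2.57 ± 0.28 in controls (SD, n = 6 each). Its difference was -0.35 (SE 0.15, limma adjusted p 0.171), and 0.07 on slide 1. The monoamine transporter Slc29a4 differed by -0.31 and the pyridoxal kinase Pdxk by -0.37, with 0.06 and -0.01 on slide 1. None of these 4 differences passed over the 12 arrays, and each was nearer 0 on the slide with both treatments. With normexp background and the 75th percentile, Akr1b1 fell by 0.60 and Qdpr by 0.50 and both passed in limma (adjusted p 0.00973 and 0.0109), while Slc29a4 and Pdxk lay above 0, at 0.04 and 0.06. Without fipronil replicate 8, where 2372 of all 16291 probes passed, Akr1b1 and Pdxk passed, at -0.64 and -0.53. Akr1b1 and Qdpr both passed for slide 3 against slide 2, at -0.75 and -0.56. In that comparison about the same share of all probes passed as of the related genes.

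**Figure D4:**
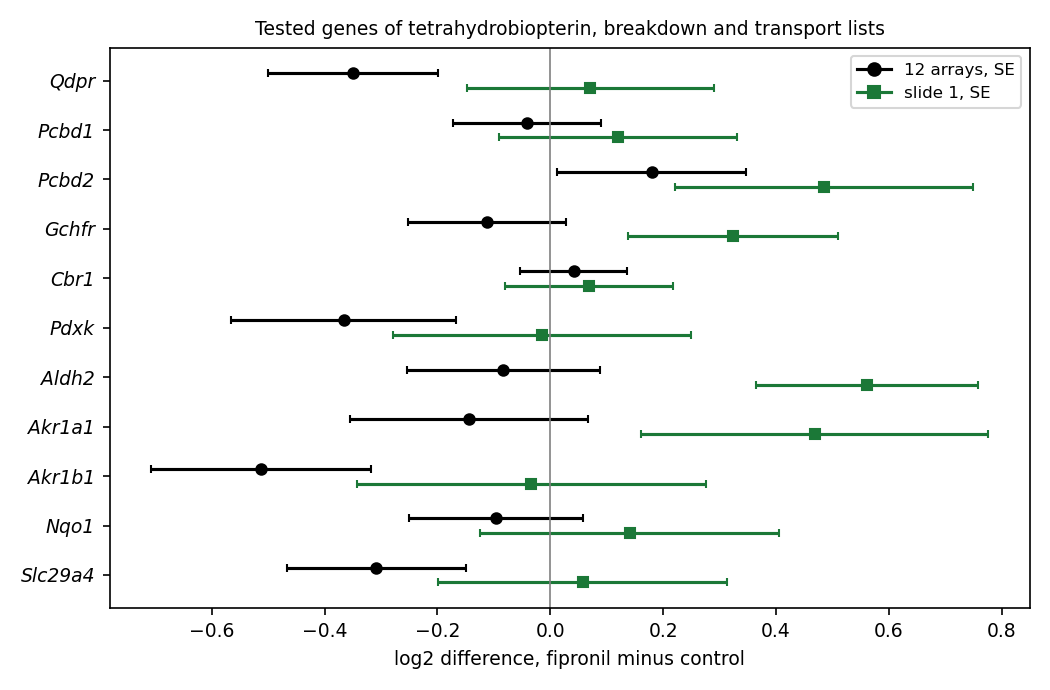
Log2 difference of fipronil minus control for 11 of the 14 tested genes of the tetrahydrobiopterin, pyridoxal phosphate, breakdown and transport lists, over 12 arrays (circles) and on slide 1 (squares), bars SE. Over 12 arrays 9 of these 11 lie below 0 and on slide 1 2 of 11 (6 of 11 over 12 arrays with normexp background and the 75th percentile). Of all probes 59.5% lay below 0 over 12 arrays and 52.7% on slide 1.

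The genes whose signal over the 12 arrays was most like that of Th, among 9443 named genes, were RT1-M6-2, Ppt2, Hba-a1, Acp5 and Tsen34. Their Pearson correlations were 0.95, 0.94, 0.93, 0.92 and 0.92. With the mean of each slide and treatment taken out, the correlations were 0.90, 0.86, 0.88, 0.91 and 0.93. What then remains for Th lies mostly within slide 1, where it was -1.86 and -1.06 in fipronil and -1.93 and -1.18 in control arrays. These correlations thus lean on the arrays of slide 1. The 12 arrays share slides and brightness, whose part in these values was not tested. The values describe the arrays and carry no test. RT1-M6-2 and Hba-a1 belong to multigene families whose close copies a probe may not separate. Of the other tested dopamine genes Gch1 came nearest to Th, with a correlation of 0.78, but only at rank 495 of the 9443 genes. Maoa was least like it, with 0.29, at rank 4041. With the mean of each slide and treatment taken out, Gch1 had 0.65 and Maoa 0.26.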

How the data were processed

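Per the submitters' processing notes, spots were quantified with Agilent Feature Extraction 10.7. Per the file headers, the processed signal is an intensity, background-subtracted and detrended within each array and not scaled between arrays. The mean signal and local background are raw intensity values, and the flags are other values of 0 or 1. The normexp alternatives were computed from the mean signal and local background, with an offset of 50. The deposited table holds log2 values that were quantile-normalized, per the labels' titles, with a lowest value of 1.5, and was used as an alternative.

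Spots marked as outliers (323 to 711 an array) were dropped, save where a probe had no other spot, and 0 spots were saturated. Signals were put on the log2 scale, the 75th percentile of each array was subtracted, and spots of a probe were averaged. Probes well above background on at least 6 of 12 arrays, whatever their treatment, were tested with limma 3.58.1 in R 4.3.3 (two-sided, Benjamini-Hochberg over 16291 probes, threshold 0.05, 95% intervals). A further fit compared the slide 1 difference with that across slides 2 and 3. The fit of fipronil against control was tested on simulated data that held no slide effect. The number of arrays, 6 a group, limits the precision.

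Current names came from a RefSeq annotation of GRCr8, by accession for 21109 probes and by symbol for 6684. The genes, lists and tests were chosen with earlier results of these data known. Named were all 9 genes, any related gene past the threshold, the 6 related genes with the smallest p and the 5 genes most like Th. The brightest tested probe stood for a related gene. Aldh2 was named after its values were seen, and some genes that these rules name are not reported here. Replicate numbers 2, 3, 7 and 8 occur in both groups, on different slides, and were not used as pairs.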

Additional observations from a re-analysis of the deposited data

Results flagged for a closer look

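On the log2 scale, 3 of 10 groups of 6 arrays had a value that stood apart from the rest, where chance gives about 1 in 20. For Th, fipronil replicate 8 was high (gap of 0.664 of the group's range) and control replicate 2 was low (gap of 0.680), against a critical value of 0.625. Both arrays lay on slide 1. For Aldh1a1, fipronil replicate 1 was low (gap of 0.637), at a value not well above background.

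Aldh2, the mitochondrial aldehyde dehydrogenase, differed by 0.56 on slide 1 and by -0.41 for slide 3 minus slide 2. The test between them gave 0.97 (limma adjusted p 0.0395, and 0.000643 to 0.191 over the alternatives), which 8.19% of all probes passed. It was past the threshold in 4 of 12 fits that left out 1 array. The part of slide brightness in this value was not tested.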

How the results depend on the processing

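The count of probes past the threshold, 863 over 12 arrays, depended on the slides and the background correction. It was 4 with slide as a fixed block, 26 with slide as a random block, 0 on slide 1 alone, 3515 for slide 3 against slide 2, 8565 with normexp and the 75th percentile, 1329 with values raised to the background level and 21371 without a filter. Leaving out 1 array gave 292 to 2372, the lowest without fipronil replicate 3 and the highest without fipronil replicate 8. The split of higher and lower calls was 378 and 485, against 468 and 393 with quantile scaling, 201 and 564 with median scaling, 599 and 562 with normexp and quantile scaling, 6601 and 1964 with normexp and the 75th percentile, and 446 and 447 in the deposited values. Of the 5 dopamine genes 0 passed, but 1 passed with median scaling (Aldh1a1), 1 without a filter (Aldh1a1), 1 for slide 3 against slide 2 (Th) and 3 with normexp and the 75th percentile (Spr, Maoa and Aldh1a1, all higher), and leaving out 1 array gave 0 to 1. In the test of slide 1 against slides 2 and 3, 0 of these 5 passed, beside 8.19% of all probes. The count was 1 each with median scaling, normexp and quantile scaling, raised values, no filter or probes well above background on all 12 arrays. It was 3 with normexp and the 75th percentile, and 0 to 2 with 1 array left out. The shares of all probes in those settings are not given, so these counts cannot be read as particular to the dopamine genes. With normexp and the 75th percentile, the log2 differences of Th, Gch1, Spr, Maoa and Aldh1a1 turned to 0.0105, 0.18, 0.29, 0.41 and 0.42, and those of Slc29a4 and Pdxk to 0.0446 and 0.0572. With slide as a fixed block and on slide 1 alone, Th was 0.10, Gch1 0.72, Qdpr 0.0712 and Slc29a4 0.0572, and with slide as a random block Gch1 was 0.0334. Replicate numbers shared by the groups did not pair arrays (correlations of 0.43, 0.09, -0.12 and -0.33 for numbers 2, 3, 7 and 8); the fit with the replicate block called 0 probes and gave 0.10 for Gch1. Aldh1a1 could not be tested when all 12 arrays had to be well above background. Apart from the block and slide fits, the causes were not tested. The dim arrays of slide 3 limit what can be read of Aldh1a1 and Pts. Fits for single related genes were chosen after seeing the data.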
